A study of Homo sapiens with 18 samples.

Results

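The cytosolic heat shock chaperones that cells raise under protein stress were followed in hepatocellular carcinoma (HCC) cells given disulfiram (DSF), an inhibitor of aldehyde dehydrogenase, or 5-fluorouracil (5-FU). The set holds 10 genes, HSPA1A, HSPA1B, HSPA6, HSPA8, DNAJB1, DNAJA1, HSPH1, HSP90AA1, BAG3 and HSPB1, out of 19716 genes that could be named on the array. These genes were listed by name, but with earlier results of these data known. They are read by 15 probes, all of which were tested. Where a gene has several probes, its value is that of the probe with the highest mean signal, and probes that differ from it are described. The samples were cells carrying EpCAM, a surface marker of tumor-initiating HCC cells, isolated by flow sorting from the human HCC lines Huh1 and Huh7. Each line was kept 48 hours as control, with 0.1 µM DSF, or with 1 µM 5-FU. Each of the 6 groups has 3 one-colour arrays. The study's methods describe replicate samples as independent experiments. The methods list DSF together with CuCl2, and what the control cells received is not stated in the sources used here. Each line is a single cell line, and all samples, controls included, were sorted for EpCAM. The study's methods do not state whether the sort came before or after treatment.

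Heat shock proteins bind unfolded proteins and help them fold, be held or be destroyed. HSP70 proteins (the HSPA genes) do this in cycles of ATP hydrolysis that J-domain proteins (DNAJ genes) start and nucleotide exchange factors such as HSPH1 and BAG3 end. HSP90 proteins take over late folding steps of many kinases and receptors, and small heat shock proteins such as HSPB1 hold unfolded proteins without using ATP. When unfolded proteins accumulate, heat shock factor 1 (HSF1) is released, forms trimers and binds heat shock elements, inverted repeats of GAA and TTC, in the promoters of these genes. HSPA6 and HSPA1A are known as strictly or strongly inducible HSP70 genes, and HSPA8 as the constitutive one.

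The promoters are shown first because the genes are known as targets of 1 factor, and the stretches below hold the heat shock element letters of HSPA6, HSPA1A and HSPA1B, the 3 genes that rose most after DSF, of DNAJB1, and of 2 genes that are abundant without stress. They were picked among windows with a match, so they do not stand for the genes without one. The letters searched were GAANNTTC and TTCNNGAA, each its own reverse complement, so both strands are covered. A run of 3 alternating units, each separated by 2 bases, was searched too and contains 2 overlapping pairs. RefSeq promoter windows of GRCh38.p14, from 250 bases before to 50 after a start site, were matched by symbol for all 10 genes, with 13 windows. The paired units were in 9 of the 13 windows (69.2%) and in 13.5% of the 35116 windows of all genes. The run of 3 units was in 4 of the 13 (30.8%), those of HSPA6, DNAJA1, HSPA8 and HSP90AA1, and in 0.49% of all windows. In DNAJA1 it lay just after the start site. The windows of BAG3 and HSPH1 held neither. In the stretches, read 5′ to 3′ on the gene's strand, capitals mark the GAA and TTC units of the matches.
HSPA6, chr1:161524345-161524493 (+), positions −195 to −47 from the start: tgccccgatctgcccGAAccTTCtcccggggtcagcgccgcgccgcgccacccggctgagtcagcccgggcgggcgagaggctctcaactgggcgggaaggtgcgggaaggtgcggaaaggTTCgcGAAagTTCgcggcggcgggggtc
HSPA1A, chr6:31815422-31815459 (+), positions −121 to −84 from the start: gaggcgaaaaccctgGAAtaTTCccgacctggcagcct
HSPA1B, chr6:31827618-31827655 (+), positions −120 to −83 from the start: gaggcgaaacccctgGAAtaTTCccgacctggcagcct
HSPA8, chr11:123062164-123062381 (-), positions −245 to −28 from the start: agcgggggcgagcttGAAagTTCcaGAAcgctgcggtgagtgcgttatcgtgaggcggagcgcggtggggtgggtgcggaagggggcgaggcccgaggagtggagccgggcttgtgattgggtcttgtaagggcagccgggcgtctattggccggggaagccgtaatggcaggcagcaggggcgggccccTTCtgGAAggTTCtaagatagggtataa
HSP90AA1, chr14:102087090-102087147 (-), positions −103 to −46 from the start of its second window: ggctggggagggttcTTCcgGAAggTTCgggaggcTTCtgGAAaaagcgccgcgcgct
DNAJB1, chr19:14518422-14518489 (-), positions −92 to −25 from the start of its second window: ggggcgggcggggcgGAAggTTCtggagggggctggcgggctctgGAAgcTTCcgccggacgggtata
A match is a description of letters and not a shown binding site. The 250 bases before the start of HSPA1A and HSPA1B are identical at 235 positions (94.0%), and the transcripts of this gene pair are near-identical too, so the signal of either probe may include the other transcript. In Huh7 control the HSPA1B probe was well above background on all 3 arrays and the HSPA1A probe on none. Probe specificity was not tested.

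**Figure D1:**
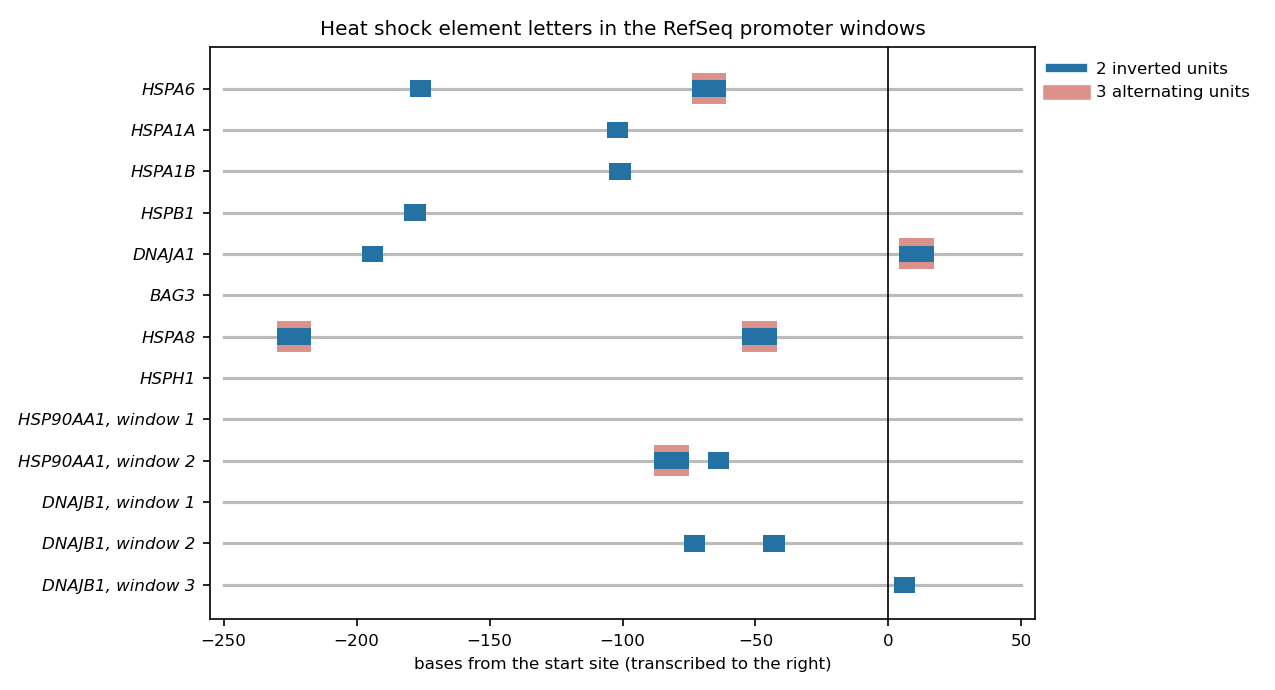
Positions of heat shock element letters in the 13 promoter windows of the 10 genes. The horizontal axis is the distance in bases from the start site, blue blocks are 2 inverted units and pink blocks 3 alternating units. HSPA8 holds 2 runs of 3 units, HSPA6, DNAJA1 and the second window of HSP90AA1 hold 1 each, and BAG3 and HSPH1 hold none.

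Array values are log2 processed signals minus the log2 75th percentile of the same array, so a value of 0 is the array's 75th percentile. Between 59.87% and 71.1% of probes were well above background per array, no spot was saturated, and the number of arrays limits the precision. The HSPA1A probe was well above background on 12 of 18 arrays and the other 14 probes on all 18. All 8 hepatocyte-lineage markers, among them ALB, AFP and EPCAM, were above background on all 18 arrays. Their levels were not alike over the 6 groups. Group means spanned 1.96 to 5.74 for EPCAM, 4.36 to 8.41 for AFP, 2.46 to 7.59 for TTR and 2.79 to 7.52 for APOA1. ALB, HNF4A, KRT8 and KRT18 spanned less, as with 8.07 to 8.62 for ALB. Of 8 markers of other cells, 3 (PTPRC, CD14 and PECAM1) were above background on every array, and the summed level of the 8 ranged from 0.94 to 1.34 in Huh1 control, 0.49 to 0.60 in Huh1 DSF, −0.06 to 0.03 in Huh7 control and −0.58 to −0.52 in Huh7 DSF. That sum was lower with DSF in both lines. Sums were taken on linear signals, so the brightest genes weighed most. Among these 8 markers CD14 had the highest group mean, 0.75. The summed level of the hepatocyte-lineage markers ranged from 9.52 to 9.63 in Huh1 control and 9.23 to 9.34 in Huh1 DSF, and from 10.01 to 10.04 in Huh7 control and 9.90 to 10.08 in Huh7 DSF. The part of either sum in the results was not tested. Slide 1 held the Huh1 arrays except DSF replicate 3, which lay on slide 2 with the Huh7 arrays, and Huh7 DSF replicates 2 and 3 lay alone on slide 3. That slide was scanned on a different day from slides 1 and 2. The 75th percentile set against 7 spiked-in control probes differed from control by 0.13 log2 in Huh1 DSF and −0.18 in Huh7 DSF, but by 0.83 in Huh1 5-FU and 0.98 in Huh7 5-FU. By array it was −3.23, −3.19 and, on slide 2, −2.94 in Huh1 DSF, against a control mean of −3.26. In Huh7 DSF it was −3.13 on slide 2 and −3.48 and −3.48 on slide 3, against a control mean of −3.19. The shifts after DSF thus lay mostly in arrays on another slide than their controls. Drug and slide cannot be told apart in those arrays. All changes below are relative to the 75th percentile, and those that another scaling turns are named.

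Untreated Huh7 cells had lower levels of these mRNAs than untreated Huh1 cells. Of the 10 genes 9 were lower in Huh7 control and 0 higher in limma's moderated test with Benjamini-Hochberg adjustment over all 29894 probes. The median difference was −1.20 log2, against −0.05 over all probes. Over all probes 36.2% were called lower and 34.5% higher in this comparison, so calls were frequent between the lines. HSPA1A gave the widest gap. Its values were 4.74, 5.01 and 4.96 in Huh1 control and −8.20, −7.96 and −8.13 in Huh7 control, where no array was well above background, and Huh1 was therefore at least 3314-fold higher. With normexp, a background correction that lifts dim signals, the difference was smaller than this bound, at −8.99 log2. This bound sets the mean of the bright group against, for each array of the dim group, the higher of its own value and the lowest signal of any probe well above background. The HSPA1B probe was above background in both lines, at 3.25, 3.38 and 3.36 in Huh1 control and 2.16, 2.11 and 2.12 in Huh7 control. The difference was −1.20 log2 (SE 0.09, adjusted p = 1.66e-08), so the pair of HSP70 genes differed between the lines to unlike extents by their own probes. DNAJB1 differed by −1.36 log2, HSPA6 by −1.41, HSPH1 by −1.21, BAG3 by −1.20, DNAJA1 by −0.99, HSPA8 by −0.57 and HSP90AA1 by −0.17, all past the threshold. HSP90AA1 was no longer called with the slide as a block (−0.20 log2, adjusted p = 0.067) and was −0.01 after quantile scaling. HSPB1 differed by −0.11 log2 (adjusted p = 0.412). Line and slide overlap here except for 1 array of Huh1 DSF on the Huh7 slide, through which the block was estimated. The second HSPA6 probe gave 0.59 log2 (adjusted p = 0.0704), opposite in sign to the brighter probe.

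After DSF the inducible HSP70 genes rose in both lines, together with DNAJB1, HSPH1 and BAG3. In Huh1, 6 of the 10 genes rose and 1, HSPB1, fell, where 23.9% of all probes were called higher and 20.3% lower. In Huh7, 10 of 10 were called higher by their brightest probes and 0 lower, where 27.3% of all probes were called higher and 19.4% lower. Of these the rise of HSPB1 was not shared by its second probe and was lost under several settings, and that of HSP90AA1 was lost under spike-in scaling, as given below. The median change of the 10 genes was 0.63 log2 in Huh1 and 1.25 in Huh7, and that of all probes was 0.00 and 0.08. In sorted bulk samples a change in RNA per cell and a change in the share of expressing cells cannot be told apart. The median in Huh7 was 1.13 with the slide as a block, a fit that rests on the single DSF array sharing the control slide, and that in Huh1 was 0.63, also within slide 1.

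HSPA6, the HSP70 gene that is nearly silent without stress, had the largest change of the set in Huh1. Its brighter probe read −3.68, −3.52 and −3.44 in Huh1 control and 3.54, 3.51 and 3.59 in Huh1 DSF. In Huh7 it read −5.03, −5.09 and −4.76 in control and 3.29, 3.24 and 3.15 with DSF. The DSF arrays of both lines thus lay near each other, far above all controls. The change was 7.10 log2 in Huh1 (SE 0.14, 137-fold, adjusted p = 1.24e-13) and 8.19 in Huh7 (SE 0.14, 292-fold, adjusted p = 1.72e-14). The second probe rose by 5.45 and 4.87 log2. With normexp the brighter probe rose by 6.28 log2 in Huh1 and 6.68 in Huh7.

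HSPA1A, the major inducible HSP70, rose in both lines from very different control levels. In Huh1 DSF the values were 6.57, 6.51 and 6.53, above the 4.74 to 5.01 of control, a change of 1.63 log2 (SE 0.14, 3.10-fold, adjusted p = 5.65e-07). In Huh7 DSF they were 1.29, 1.36 and 1.32, above background on every array, against a control that was not. The rise in Huh7 was at least 276-fold, or 8.11 log2, and the fit itself gave 9.42 (adjusted p = 3.83e-15). The bound holds for the scanner software's own background subtraction, and with normexp the change was 5.42 log2. Huh7 with DSF still lay below every Huh1 array, whether control, DSF or 5-FU.

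HSPA1B, the neighbouring gene that encodes the same HSP70 protein, rose to a common level. Its values were 4.36, 4.26 and 4.38 in Huh1 DSF and 4.41, 4.22 and 4.17 in Huh7 DSF, and these groups overlapped. The change was 1.00 log2 in Huh1 (SE 0.09, adjusted p = 9.2e-07) and 2.14 in Huh7 (SE 0.09, 4.39-fold, adjusted p = 6.57e-10).

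HSPA8, the constitutive HSP70, moved in Huh7 after DSF. In Huh1 the control values were 5.28, 5.33 and 5.28 and those with DSF 5.33, 5.28 and 5.40, which overlapped (change 0.04 log2, SE 0.06, adjusted p = 0.61). In Huh7 the values were 4.72, 4.72 and 4.74 in control and 5.75, 5.60 and 5.63 with DSF. This rise of 0.93 log2 (SE 0.06, 1.91-fold, adjusted p = 6.83e-08) placed Huh7 DSF above all Huh1 groups.

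The 2 J-domain genes, whose products hand substrates to HSP70, responded differently. DNAJB1 rose in both lines. In Huh1 it went from 1.51, 1.68 and 1.56 in control to 2.33, 2.37 and 2.43 with DSF, a change of 0.79 log2 (SE 0.08, adjusted p = 3.39e-06). In Huh7 it went from 0.21, 0.20 and 0.26 to 1.31, 1.54 and 1.53, a change of 1.24 log2 (SE 0.08, adjusted p = 5.81e-08). No DSF array overlapped its control in either line. DNAJA1 read 4.55, 4.53 and 4.53 in Huh1 control and 4.65, 4.51 and 4.57 with DSF, which overlapped (0.04 log2, adjusted p = 0.616). In Huh7 it read 3.49, 3.55 and 3.57 in control and 4.31, 4.17 and 4.15 with DSF, a rise of 0.67 log2 (SE 0.06, adjusted p = 1.2e-06) that left it below the Huh1 controls.

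HSPH1 and BAG3, which release nucleotide or substrate from HSP70, rose in both lines. HSPH1, the HSP110 gene, read 4.31, 4.34 and 4.33 in Huh1 control and 4.91, 4.87 and 4.87 with DSF (0.56 log2, SE 0.06, adjusted p = 3.21e-06). In Huh7 it read 3.12, 3.11 and 3.11 in control and 4.74, 4.71 and 4.63 with DSF (1.58 log2, SE 0.06, 2.99-fold, adjusted p = 1.68e-10). The control arrays of each line were tightly grouped and lay below every DSF array of that line. Its second probe gave 0.82 log2 in Huh1 and 1.74 in Huh7. BAG3, which also links HSP70 to autophagy, read 0.92, 0.94 and 0.94 in Huh1 control and 1.66, 1.60 and 1.66 with DSF (0.70 log2, SE 0.05, adjusted p = 1.63e-07). In Huh7 it read −0.26, −0.30 and −0.25 in control and 0.90, 1.05 and 1.00 with DSF (1.25 log2, SE 0.05, adjusted p = 5.96e-10). Huh7 DSF thereby reached the range of Huh1 control.

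HSP90AA1, the inducible cytosolic HSP90, rose in Huh7 with DSF. Its brightest probe read 7.06, 7.07 and 7.08 in Huh7 control and 7.46, 7.49 and 7.51 with DSF (0.41 log2, SE 0.05, adjusted p = 1.12e-05). In Huh1 it read 7.29, 7.22 and 7.20 in control and 7.22, 7.18 and 7.23 with DSF, which overlapped (−0.03 log2, adjusted p = 0.685). The 2 other probes gave 0.48 and 0.65 log2 in Huh7 and 0.15 and 0.16 in Huh1, of which the last passed the threshold (adjusted p = 0.0438). The sign in Huh1 therefore depended on the probe, and on the scaling too. The change was 0.0059 log2 after quantile scaling and 0.11 after spike-in scaling, neither called, but −0.20 after median scaling, which was called (adjusted p = 0.0175). In Huh7 spike-in scaling kept the sign but not the call (0.24 log2, adjusted p = 0.144).

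HSPB1, which encodes the small heat shock protein HSP27, was the only gene of the 10 called lower after DSF in either line by its brightest probe. In Huh1 this probe read 6.06, 6.39 and 6.35 in control and 5.75, 5.81 and 5.83 with DSF (−0.47 log2, SE 0.11, adjusted p = 0.00369), a fall that was not called under spike-in scaling (−0.34, adjusted p = 0.0663). In Huh7 it read 6.09, 6.18 and 6.21 in control and 6.40, 6.64 and 6.68 with DSF (0.42 log2, SE 0.11, adjusted p = 0.00837). The second probe read 0.40, 0.41 and 0.43 in Huh7 control and −0.11, −0.27 and −0.10 with DSF, a fall (−0.57 log2, SE 0.11, adjusted p = 0.000613). The probes of HSPB1 thus moved in opposite directions in Huh7 and the same way in Huh1, where the second probe gave −0.79 log2. The rise of the brightest probe in Huh7 was no longer called with the slide as a block (0.24 log2, adjusted p = 0.296), within slide 2 (adjusted p = 0.283), after quantile scaling (0.27, adjusted p = 0.0628) or after spike-in scaling (0.24, adjusted p = 0.189). The direction for this gene in Huh7 was not settled.

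The change after DSF was more positive in Huh7 than in Huh1 for all 10 genes by the test of the difference itself on their brightest probes, with the change in Huh1 subtracted from that in Huh7. For HSPB1 this was a difference in sign, not a larger rise, and its second probe gave 0.22 log2 (adjusted p = 0.265). In that comparison 10 of 10 were called higher and 0 lower, where 21.1% of all probes were called higher and 19.2% lower. The median difference was 0.89 log2 against 0.05 over all probes. HSPA1B differed by 1.13 log2 (SE 0.13, adjusted p = 1.32e-05), HSPH1 by 1.02 (SE 0.08, adjusted p = 6.47e-07) and HSPA8 by 0.89 (SE 0.09, adjusted p = 4.76e-06). For HSPA1A the bound in Huh7 exceeded the change in Huh1 by 6.48 log2, and with normexp the difference was 3.77. The genes with the smallest differences were HSP90AA1 at 0.44 and DNAJB1 at 0.45. This contrast shares its control arrays with the comparison of the untreated lines, so the lower controls of Huh7 enter both. Under spike-in scaling 4 of the 10 remained called, HSPA1A, HSPA1B, HSPH1 and HSPB1, all with the same sign, while the median over all probes moved from 0.05 to −0.26. Of all 29894 probes 8364 were called under that scaling, 16.9% of them higher. For HSPA6 the second probe gave −0.58 log2 (adjusted p = 0.262), opposite to the 1.09 of the brighter probe, and the mean over its probes was not called (0.26 log2, adjusted p = 0.428). With the slide as a block DNAJB1 was not called (0.33 log2, adjusted p = 0.0933).

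**Figure D2:**
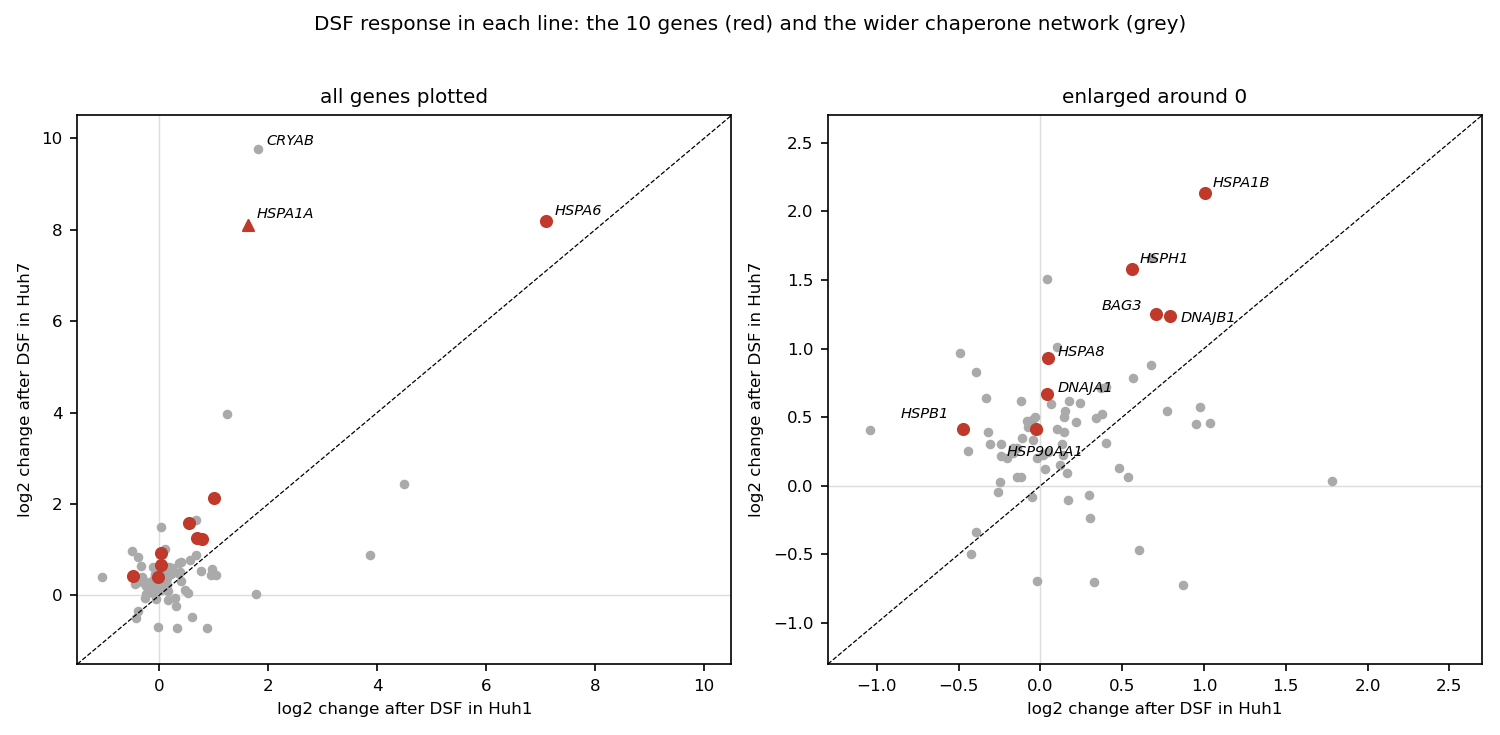
Log2 change after DSF in Huh1 (horizontal) and Huh7 (vertical) of the 10 genes (red) and of 74 genes of a wider chaperone list (grey), over all values on the left and enlarged on the right, with a dashed line of equal change. All 10 red points lie above the line, with HSPA1A (triangle, a lower bound in Huh7) and HSPA6 far from the others, and the wider genes include points on both sides. Grey points of genes below background in control (DNAJA4 and HSPB2) are fitted values and not bounds.

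After 5-FU, an antimetabolite that blocks thymidylate synthesis and enters RNA, the genes moved in both directions. In Huh1, 2 of the 10 rose and 4 fell, where 22.2% of all probes were called higher and 26.0% lower. In Huh7, 5 rose and 4 fell, where 27.3% of all probes were called higher and 29.7% lower. The median change was −0.05 log2 in Huh1 and 0.04 in Huh7, close to the −0.03 and −0.05 of all probes. HSPA1B fell in both lines. It read 2.68, 2.36 and 2.32 in Huh1 5-FU (−0.88 log2, SE 0.09, adjusted p = 3.2e-06) and 1.24, 1.35 and 1.36 in Huh7 5-FU (−0.82 log2, SE 0.09, adjusted p = 2.77e-06), below all controls of the same line. HSPA8 read 4.70, 4.77 and 4.82 in Huh1 5-FU (−0.53 log2, adjusted p = 1.09e-05) and 4.40, 4.20 and 4.36 in Huh7 5-FU (−0.41 log2, adjusted p = 6.19e-05), again below its controls. HSP90AA1 differed by −0.23 log2 in Huh1 and −0.21 in Huh7, but its other probes gave −0.05 and 0.07 in Huh1, neither past the threshold. The falls of HSPA1B and HSPA8 were called under quantile and median scaling as well, while HSP90AA1 turned to 0.14 and 0.27 log2 under quantile scaling. Under spike-in scaling 8 of 10 genes were called higher and 0 lower in each line, and the median over all probes was 0.79 log2 in Huh1 and 0.94 in Huh7. Of all 29894 probes that scaling called 22736 in Huh1 and 23956 in Huh7, 98.4% and 95.7% of them higher.

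DNAJA1 was the gene of the set that 5-FU raised most in Huh7. It read 4.35, 4.35 and 4.37 in Huh7 5-FU, above the 3.49 to 3.57 of control, a rise of 0.82 log2 (SE 0.06, adjusted p = 6.15e-08). In Huh1 it read 4.61, 4.76 and 4.76, a change of 0.18 log2 (adjusted p = 0.0303), below the 0.22 of DNAJB1. In Huh7 HSPH1 rose by 0.45 log2, HSPB1 by 0.44, DNAJB1 by 0.38 and BAG3 by 0.29, while HSPA6 fell by 0.86 on the log2 scale. The second HSPB1 probe gave 0.011 log2 there (adjusted p = 0.939). The rises of DNAJA1 and of DNAJB1 (0.22 log2, adjusted p = 0.0388) in Huh1 and the fall of HSPA1A there (−0.35 log2, adjusted p = 0.049) lay close to the threshold. Leaving out each of Huh1 control replicates 1 to 3 or Huh1 5-FU replicates 1 to 3 in turn gave 0 or 1 gene called higher in place of 2. HSPA1A was below background in Huh7 control and in Huh7 5-FU, at −8.00, −8.69 and −8.42 in the latter, so no fold was computed. With 5-FU the change in Huh7 minus the one in Huh1 was called higher for 3 genes, DNAJA1, HSPH1 and BAG3, and lower for 1, HSPA6, where 18.8% of all probes were called higher and 17.8% lower. For HSPA6 the second probe gave −0.38 log2 (adjusted p = 0.499) against the −1.11 of the brighter one.

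Set directly against each other, DSF left higher levels of most of these genes than 5-FU. In Huh1, 8 of 10 were higher with DSF and 1, HSPB1, was lower, where 28.7% of all probes were called higher and 20.6% lower. In Huh7, 8 were higher and 0 lower, where 35.6% of all probes were called higher and 25.0% lower. The median difference was 0.58 log2 in Huh1 and 1.04 in Huh7. HSPA6 differed by 6.85 and 9.04 log2, and HSPA1B by 1.88 and 2.95. HSPA1A differed by 1.99 log2 in Huh1 and by at least 375-fold in Huh7, where normexp gave 5.99 log2. DNAJA1 was the exception in both lines, at −0.13 log2 in Huh1 (SE 0.06, adjusted p = 0.0905) and −0.15 in Huh7 (SE 0.06, adjusted p = 0.0522). HSPB1 differed by −0.02 log2 in Huh7 (SE 0.11, adjusted p = 0.869). DSF and 5-FU were compared with the same controls, so these differences are not independent of the changes above. Under spike-in scaling 3 genes were higher with DSF in each line, and 3 were lower in Huh1 and 4 in Huh7. Of all 29894 probes that scaling called 20133 in Huh1 and 25013 in Huh7, 6.83% and 3.30% of them higher with DSF. HSPA6 (6.15 and 7.88 log2), HSPA1B (1.19 and 1.79) and HSPA1A (1.29 in Huh1) stayed higher with DSF there.

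Ordered by their group means, 9 of the 10 genes had their lowest level in a Huh7 group, with HSPB1, lowest in Huh1 DSF, as the exception. Order and overlap were read for these 10 genes only, not over all probes. Over all probes 36.2% were called lower in Huh7 control than in Huh1 control and 34.5% higher. The lowest group was Huh7 5-FU for 4 genes and Huh7 control for 4, while for HSPA1A those groups were both below background and have no order. For the genes lowest in Huh7 5-FU (HSPA1B, HSPA6, HSPA8 and HSP90AA1) the order holds relative to the 75th percentile, since spike-in scaling placed Huh7 5-FU above Huh7 control, by 0.17, 0.13, 0.57 and 0.78 log2. The highest was Huh1 DSF for 6 genes, Huh7 DSF for 2 (HSPA8 and HSP90AA1), Huh1 5-FU for DNAJA1 and Huh7 5-FU for HSPB1. Some neighbouring groups had overlapping arrays. Among them were Huh7 DSF and Huh1 control for BAG3 and DNAJB1, Huh1 control and Huh1 DSF for HSPA8, DNAJA1 and HSP90AA1, and the control groups of both lines for HSPB1. A lack of overlap did not amount to a call. Huh1 control and Huh1 5-FU did not overlap for BAG3, HSPA6 and HSPB1 but were not called (limma adjusted p = 0.232, 0.159 and 0.0859).

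The wider chaperone network was read through 9 lists of 78 genes, of which 74 were tested. After DSF, 27 of the 74 rose and 14 fell in Huh1, where 23.9% of all probes were called higher and 20.3% lower, so that the fallen genes were near the share of all probes. In Huh7, 52 rose and 4 fell, against 27.3% and 19.4% of all probes. Chaperonins, the ring-shaped folding machines of cytosol and mitochondria, rose in Huh7 for 10 of 10 genes, by 0.23 to 0.83 log2, while in Huh1 0 rose and 3 (CCT6A, HSPD1 and HSPE1) fell. Under spike-in scaling those 3 were called in neither line (limma adjusted p = 0.352, 0.874 and 0.0786 in Huh1 and 0.506, 0.749 and 0.7 in Huh7). HSPE1 in Huh7 was not called under quantile scaling either (0.093 log2, adjusted p = 0.156). Of 11 tested genes of the HSP90 system, co-chaperones and HSP90AB1, 9 rose in Huh7 and 0 fell, and in Huh1 0 rose and 3 fell. CHORDC1, an HSP90 co-chaperone, rose by 1.01 log2 in Huh7 (SE 0.06) and differed by 0.10 in Huh1 (adjusted p = 0.206). AHSA1, which stimulates the HSP90 ATPase, changed by 0.39 log2 in Huh7 and −0.32 in Huh1, both past the threshold but neither under spike-in scaling. HSF1 rose in both lines, by 0.34 and 0.50 log2, and was not called under median scaling in Huh1 (adjusted p = 0.0942) or spike-in scaling in Huh7 (adjusted p = 0.0817). HSPD1 (−0.17 log2) lay near the threshold in Huh1 and lost its call when any of 4 single Huh1 arrays was left out. These genes were named after their values were seen. Under spike-in scaling 15 genes of the network rose in Huh7 in place of 52, and under median scaling 14 rose and 27 fell in Huh1, so the counts of small changes depended on the scaling. Of all 29894 probes spike-in scaling called 9335 in Huh7, 34.3% of them higher. Median scaling called 14385 in Huh1, 33.0% of them higher. Without Huh1 DSF replicate 1 or without replicate 2, 9 network genes fell in Huh1 in place of 14.

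Some genes of these lists changed by as much as the inducible HSP70 genes. CRYAB, the small heat shock protein alpha-B-crystallin, read −5.34, −5.35 and −5.31 in Huh7 control and 4.47, 4.41 and 4.42 with DSF. This rise of 9.76 log2 (SE 0.12, adjusted p = 3.84e-16) exceeded that of HSPA6 in the same line. In Huh1 CRYAB read 0.72, 0.86 and 0.76 in control and 2.64, 2.51 and 2.62 with DSF, a rise of 1.82 log2 (SE 0.12). HSPB8, a partner of BAG3, rose by 1.25 log2 in Huh1 and 3.96 in Huh7. DNAJA4, a J-domain gene below background in both controls, was at least 14.0-fold higher with DSF in Huh1 and at least 2.9-fold higher in Huh7. Normexp gave it changes below these bounds, 1.68 log2 in Huh1 and 0.36 in Huh7. HSPB2, encoded next to CRYAB, was below background in Huh1 control and at least 6.3-fold higher with DSF, and in Huh7, where 1 of 3 control arrays measured it, it changed by 0.89 log2 (adjusted p = 0.0319) and was not called with the slide as a block or under several other settings. The HSPB2 change in Huh1 was 0.96 log2 with normexp, again below its bound. HSPB2 entered the tests only through the DSF groups, since in no other group were all 3 arrays above background. Its calls, which are included in the counts, are thus not independent of where it was high. DNAJA4 likewise entered only through drug-treated groups. In all, 19 of the 74 network genes were called in the same direction in both lines, where 17.5% of all probes were. The others with the largest mean change were ZFAND2A (0.67 log2 in Huh1 and 1.66 in Huh7), DNAJB2 (0.67 and 0.88), SERPINH1, the collagen chaperone (0.97 and 0.58), RGS2 (1.04 and 0.46), IER5 (0.95 and 0.45), DNAJC2 (0.56 and 0.79), HSPA1L (0.78 and 0.55) and BAG1 (0.40 and 0.72). RGS2 was no longer called in Huh7 once the slide was blocked (adjusted p = 0.0592), under median and spike-in scaling, and when any single Huh7 control or DSF array was left out. HSPA1L in Huh7 was not called with the slide as a block (adjusted p = 0.0841) or under spike-in scaling, and was 0.028 log2 with normexp (adjusted p = 0.805). Spike-in scaling also ended the calls of SERPINH1 (adjusted p = 0.0625) and IER5 (adjusted p = 0.147) in Huh7, and median scaling that of BAG1 in Huh1 (adjusted p = 0.102).

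After 5-FU, 19 of the 74 network genes rose and 30 fell in Huh1, where 22.2% of all probes were called higher and 26.0% lower. In Huh7, 31 rose and 25 fell, against 27.3% and 29.7% of all probes, and 34 were called in the same direction in both lines, against 29.2% of all probes. The risen genes in Huh1 and the fallen ones in Huh7 were near the shares of all probes. Several genes that rose with DSF rose with 5-FU as well, against the same controls. HSPB8 rose by 1.22 log2 in Huh1 and 3.54 in Huh7, ZFAND2A by 0.62 and 1.58, SERPINH1 by 1.22 and 0.69, DNAJB2 by 0.90 and 0.83, RGS2 by 1.29 and 1.62, and CRYAB by 0.36 and 1.69. The CRYAB call in Huh1 was lost without control replicate 1 or 3 or without 5-FU replicate 1. HSF1 differed by 0.13 log2 in Huh1 (adjusted p = 0.0371), lost under median scaling and other settings, and rose by 0.41 in Huh7. DNAJA4 was at least 1.9-fold higher in Huh1 and, with 2 of 3 arrays above background, at least 2.9-fold higher in Huh7, but with normexp it was −0.15 log2 in Huh1 and 0.13 in Huh7, neither called. BAG5 (0.53 and 1.23), CCT5 (0.48 and 1.24) and DNAJC8 (0.59 and 0.97) rose too. CCT5 was the only 1 of 10 chaperonins called higher, while 5 were called lower in each line. Its probe was dim, with means of −1.57 in Huh1 control and −3.73 in Huh7 control. The organelle chaperones fell, 4 of 5 in Huh1 and 5 of 5 in Huh7, and the endoplasmic reticulum HSP90, HSP90B1, differed by −0.90 and −1.02 log2. HSP90AB1, the constitutive cytosolic HSP90, differed by −0.70 and −0.90 log2, but by 0.12 and 0.08 under spike-in scaling, under which 0 network genes were called lower in either line.

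Likeness over the 18 arrays was measured as Pearson's r to the mean of the standardized profiles of the 10 genes, as a description, since all points share groups and scaling. HSPH1 (r = 0.98) and BAG3 (0.95) lay closest to that mean, HSPA1B (0.90), DNAJB1 (0.90), HSPA1A (0.90), HSPA8 (0.85), HSPA6 (0.85), HSP90AA1 (0.73) and DNAJA1 (0.61) followed, and HSPB1 (−0.18) stood apart. Each of the 10 genes is itself part of that mean, which raises its r. Their r values are therefore not on a par with those of genes outside the set. The 5 other named genes with the highest r were CRYAB (0.98), RTCA (0.98), PSMC2 (0.97), CD163L1 (0.97) and KLF7 (0.96). After DSF, RTCA, an RNA cyclase, changed by 0.22 log2 in Huh1 and 0.84 in Huh7, PSMC2, an ATPase subunit of the proteasome cap, by 0.13 and 0.60, and KLF7, a transcription factor, by 0.54 and 1.71. CD163L1 was above background on 12 of 18 arrays, and in at least 1 group on none, so its fitted changes are not given.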

How the data were processed

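Array values came from 18 one-colour arrays. The authors hybridized Cy3-labelled RNA to an Agilent human gene expression array and deposited scanner output (Feature Extraction 10.7.1.1) whose processed signal is a linear intensity after background subtraction, not scaled between arrays. A deposited table of normalized intensity, each array divided by its 75th percentile, served as an alternative. Here repeated spots of 1 probe were averaged as log2 processed signals after outlier spots were dropped, and the array's 75th percentile was subtracted. Of 42405 probes, 78 lacked a value on an array. Tests covered the 29894 probes that, in 1 or more groups, had every array well above background. RefSeq accessions gave a symbol for 25732 of 27134 probes and no coordinates, because the naming table uses GRCh38.p14, as the RefSeq promoters do, and the array design hg19. The number of arrays limits the precision.

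All 6 groups entered a single limma fit (lmFit, contrasts.fit, eBayes, version 3.58.1 in R 4.3.3) with 9 contrasts, and calls are Benjamini-Hochberg adjusted p under 0.05 over all tested probes. Methods name the Mann-Whitney U test, which with 3 against 3 arrays cannot give an exact p below 0.1 (two-sided). The scripts were tested on simulated data. Alternatives were quantile, median and spike-in scaling, normexp background with an offset of 50 (on median spot signals, since mean signals are not in the files used here), the deposited table, no filter, a strict filter on dim probes, the mean over a gene's probes, each line alone, the slide as a block or within a slide, a replicate block, and leaving out each array. Named genes are the 10 genes, from the network up to 12 per drug called in the same direction in both lines, ranked by mean absolute change, and the 5 genes most like the mean profile. AHSA1, CHORDC1, HSF1, CCT6A, HSPD1 and HSPE1, also from the lists, were named after their values were seen. The 10 genes, the lists and the tests were chosen with earlier results of these data known. Tables and figures were made in Python 3.11.15 (pandas 2.3.3, numpy 2.4.6, matplotlib 3.10.9).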

Additional observations from a re-analysis of the deposited data

Results flagged for a closer look

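The effect of DSF differed between the lines for all 10 genes by the limma test of the difference. Huh7 minus Huh1 was 7.79 log2 for HSPA1A as fitted (adjusted p = 9.33e-12), with the Huh7 control below background, and 1.13 for HSPA1B (adjusted p = 1.32e-05), 1.09 for HSPA6 (adjusted p = 0.000595), 1.02 for HSPH1 (adjusted p = 6.47e-07) and 0.89 for HSPA8 (adjusted p = 4.76e-06). It was 0.89 for HSPB1 (adjusted p = 0.000629), 0.63 for DNAJA1 (adjusted p = 7.55e-05), 0.55 for BAG3 (adjusted p = 6.26e-05), 0.45 for DNAJB1 (adjusted p = 0.00748) and 0.44 for HSP90AA1 (adjusted p = 0.000191). For HSPA6 and HSPB1 a second probe of the gene did not pass the threshold, and that of HSPA6 had the opposite sign (−0.58 log2). Under spike-in scaling only HSPA1A, HSPA1B, HSPH1 and HSPB1 stayed called. With the slide as a block DNAJB1 was not called.

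The effect of 5-FU differed between the lines for 4 genes. Huh7 minus Huh1 was 0.64 log2 for DNAJA1 (adjusted p = 6.6e-05), 0.47 for HSPH1 (adjusted p = 0.000452), 0.37 for BAG3 (adjusted p = 0.00135) and −1.11 for HSPA6 (adjusted p = 0.000581). The second HSPA6 probe gave −0.38 (adjusted p = 0.499). By the brightest probes all of them were also called under spike-in scaling, in which the median of all probes was 0.14 log2.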

How the results depend on the processing

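The sign of a change in the 10 genes after DSF was kept by every alternative for HSPA1A, HSPA1B, HSPA6, DNAJB1, HSPH1 and BAG3 in both lines, and the calls of these genes against control were kept too (HSPA1A was not tested under the strict filter). Under spike-in scaling 102 of 180 results kept their direction and their side of the threshold, or for counts and medians their size. Under it members were called higher and lower, in that order, for 8 and 0 genes after 5-FU in each line, 3 and 3 for DSF against 5-FU in Huh1, 3 and 4 in Huh7, and 0 were lower after DSF in Huh1, while 4 were higher in the DSF difference between the lines. Network genes called higher and lower became 59 and 0 after 5-FU in Huh1, 68 and 0 in Huh7, 15 higher after DSF in Huh7 and 1 lower in Huh1. Of all 29894 probes 22736 and 23956 were called after 5-FU in Huh1 and Huh7, and 9461 and 9335 after DSF. Medians of the 10 genes became 0.78 log2 after 5-FU in Huh1, −0.12 for DSF against 5-FU in both lines. Signs turned after 5-FU in Huh1 for HSPA1A (0.47), HSPA8 (0.30), HSPH1 (0.81), HSP90AA1 (0.59), BAG3 (0.75) and HSP90AB1 (0.12), in Huh7 for HSPA1B (0.17), HSPA6 (0.13), HSPA8 (0.57), HSP90AA1 (0.78) and HSP90AB1 (0.083), and after DSF in Huh1 for HSP90AA1 (0.11). For DSF against 5-FU they turned in Huh1 for HSPA8 (−0.12), DNAJB1 (−0.12), HSPH1 (−0.11) and HSP90AA1 (−0.49), and in Huh7 for DNAJB1 (−0.31), HSPH1 (−0.032), HSP90AA1 (−0.54) and BAG3 (−0.20). The share of calls that were higher over all probes moved from 54.1% to 74.7% after DSF in Huh1, 58.5% to 34.3% in Huh7, 46.1% to 98.4% and 47.9% to 95.7% after 5-FU, 58.2% to 6.83% and 58.8% to 3.30% for DSF against 5-FU, and 52.3% to 16.9% and 51.3% to 66.5% for the differences between lines.

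Quantile scaling gave 4 genes higher after 5-FU in Huh1 (median 0.12, HSPH1 0.091, HSP90AA1 0.14), HSP90AA1 at 0.27 after 5-FU in Huh7, 3 genes lower for DSF against 5-FU in Huh1 and 2 in Huh7, HSP90AA1 at −0.14 and −0.0058 there and at 0.0059 after DSF in Huh1, and HSPB1 at 0.047 between the controls. Median scaling gave 2 genes lower after DSF in Huh1, HSPB1 (−0.64) and HSP90AA1 (−0.20, adjusted p = 0.0175), while HSPA8 (−0.13), DNAJA1 (−0.13) and CHORDC1 (−0.073) turned sign there without a call, 14 network genes higher and 27 lower there, 0 genes higher after 5-FU in Huh1 and 2 lower for DSF against 5-FU in Huh1. It moved the share of calls that were higher to 33.0% after DSF in Huh1, 40.7% for DSF against 5-FU in Huh1 and 68.5% for the DSF difference between lines. Normexp gave HSPA6 at −0.030, HSPH1 at 0.0071 and DNAJA4 at −0.15 after 5-FU in Huh1, HSPB1 at 0.035 between the controls, and 2 and 1 genes lower for DSF against 5-FU in Huh1 and Huh7. The mean over probes gave HSP90AA1 at 0.10 after DSF in Huh1, HSPB1 at −0.079 after DSF in Huh7, HSPA6 at −0.080 and HSPH1 at 0.049 after 5-FU in Huh1, 2 genes lower there and 1 lower for DSF against 5-FU in Huh7. Without the filter 1 gene was higher after 5-FU in Huh1, and the strict filter, which drops HSPA1A, gave 1 gene lower for DSF against 5-FU in Huh7. The cause of these shifts was not tested.

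Within slide 1, 1 gene was higher after 5-FU in Huh1. Within slide 2, where DSF has 1 array that is assumed to vary like the other groups, 27 network genes were higher and 2 lower after DSF in Huh7, and with the slide as a block 2 were lower. Leaving out 1 array gave 9 to 13 network genes lower after DSF in Huh1, 0 to 1 gene higher after 5-FU in Huh1, HSPH1 at −0.064 to 0.040 there, 1 to 2 genes lower for DSF against 5-FU in Huh1, 0 to 1 in Huh7, and HSPB1 at −0.10 to 0.064 there. Same-numbered arrays showed no common deviation from their group means over all tested probes, with correlations from −0.093 to 0.024 over 18 pairs. These correlations cannot show whether such arrays came from the same experiment. With the replicate block 0 genes were higher after 5-FU in Huh1 and 9 network genes were lower after DSF in Huh1, and the block changed no call of the 10 genes after DSF. The 3 arrays per group limit what small changes can be called, and values near background hold for 1 background correction only.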
